A study of Homo sapiens with 8 samples.

Results

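Molecular chaperones bind unfolded proteins and help them fold. In the cytosol, HSP70 proteins take up clients delivered by J-domain (HSP40) co-chaperones, BAG proteins release ADP from HSP70, and HSP90 proteins mature kinases and receptors. In the endoplasmic reticulum (ER), HSPA5 and HSP90B1 are the HSP70 and HSP90 paralogs, and the lectins calnexin and calreticulin retain glycoproteins until they are folded. NAT10 is the acetyltransferase that forms N4-acetylcytidine (ac4C) in RNA. The peaks of 10 chaperone genes were examined: HSP90AA1, HSP90AB1, HSPA5, CALR, BAG3, BAG5, HSPA8, HSP90B1, DNAJB1 and CANX. They were chosen by name from the deposited ac4C peak lists, with their peaks known, so their presence in a list is a description and no test was made on it. They are 10 of the 9046 genes with a peak in either list, and they hold 23 of the 17481 peaks.

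The series has 8 libraries, 2 biological replicates in each of 4 groups: input RNA and ac4C-immunoprecipitated RNA of SiHa cells, an established cervical cancer line, and the same 2 fractions of SiHa cells with NAT10 knocked out (labelled KONAT10SiHa). The labels name no agent, and they do not say how the knockout was made or whether it is 1 clone. The data used here are 1 peak list for SiHa and 1 whose name adds a K, read as that of the knockout although no label says so in words. Both lists are authors' calls with no value for a replicate and no read counts. Depth is therefore unknown, no difference between the lists has a replicate check, and a peak gives no level of the transcript.

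The SiHa list held 12924 peaks in 7291 genes and the knockout list 4557 peaks in 3726 genes. NAT10 itself had 1 peak in the SiHa list and none in the knockout list. Of all genes with a SiHa peak, 73.0% had no knockout peak, so this is the common pattern and gives no level of NAT10. Among epithelial markers, KRT5, KRT13 and EPCAM had SiHa peaks alone, KRT8 and KRT19 peaks in both lists and KRT18 knockout peaks alone, and CDH1 and TP63 had none. Among markers of other cells, HBB and HBA1 each had 2 peaks in either list, VIM and ALB had peaks in both, PTPRC and PECAM1 had a knockout peak alone and COL1A1 had none. Their part in the chaperone results was not tested.

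All 10 chaperone genes had a SiHa peak, 16 peaks in all, and 5 of them also had a knockout peak, 7 peaks in all. The genes with peaks in both lists were the HSP90 genes HSP90AA1, HSP90AB1 and HSP90B1, the J-domain gene DNAJB1 and the calnexin gene CANX. The genes with SiHa peaks alone were HSPA8 and HSPA5, the cytosolic and ER HSP70 genes, the exchange factor genes BAG3 and BAG5, and the calreticulin gene CALR. Thus 5 of 10 had a SiHa peak and no knockout peak, beside 73.0% of all genes with a SiHa peak. Since the members were chosen with these peaks known, nothing is read from that contrast.

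**Figure D1:**
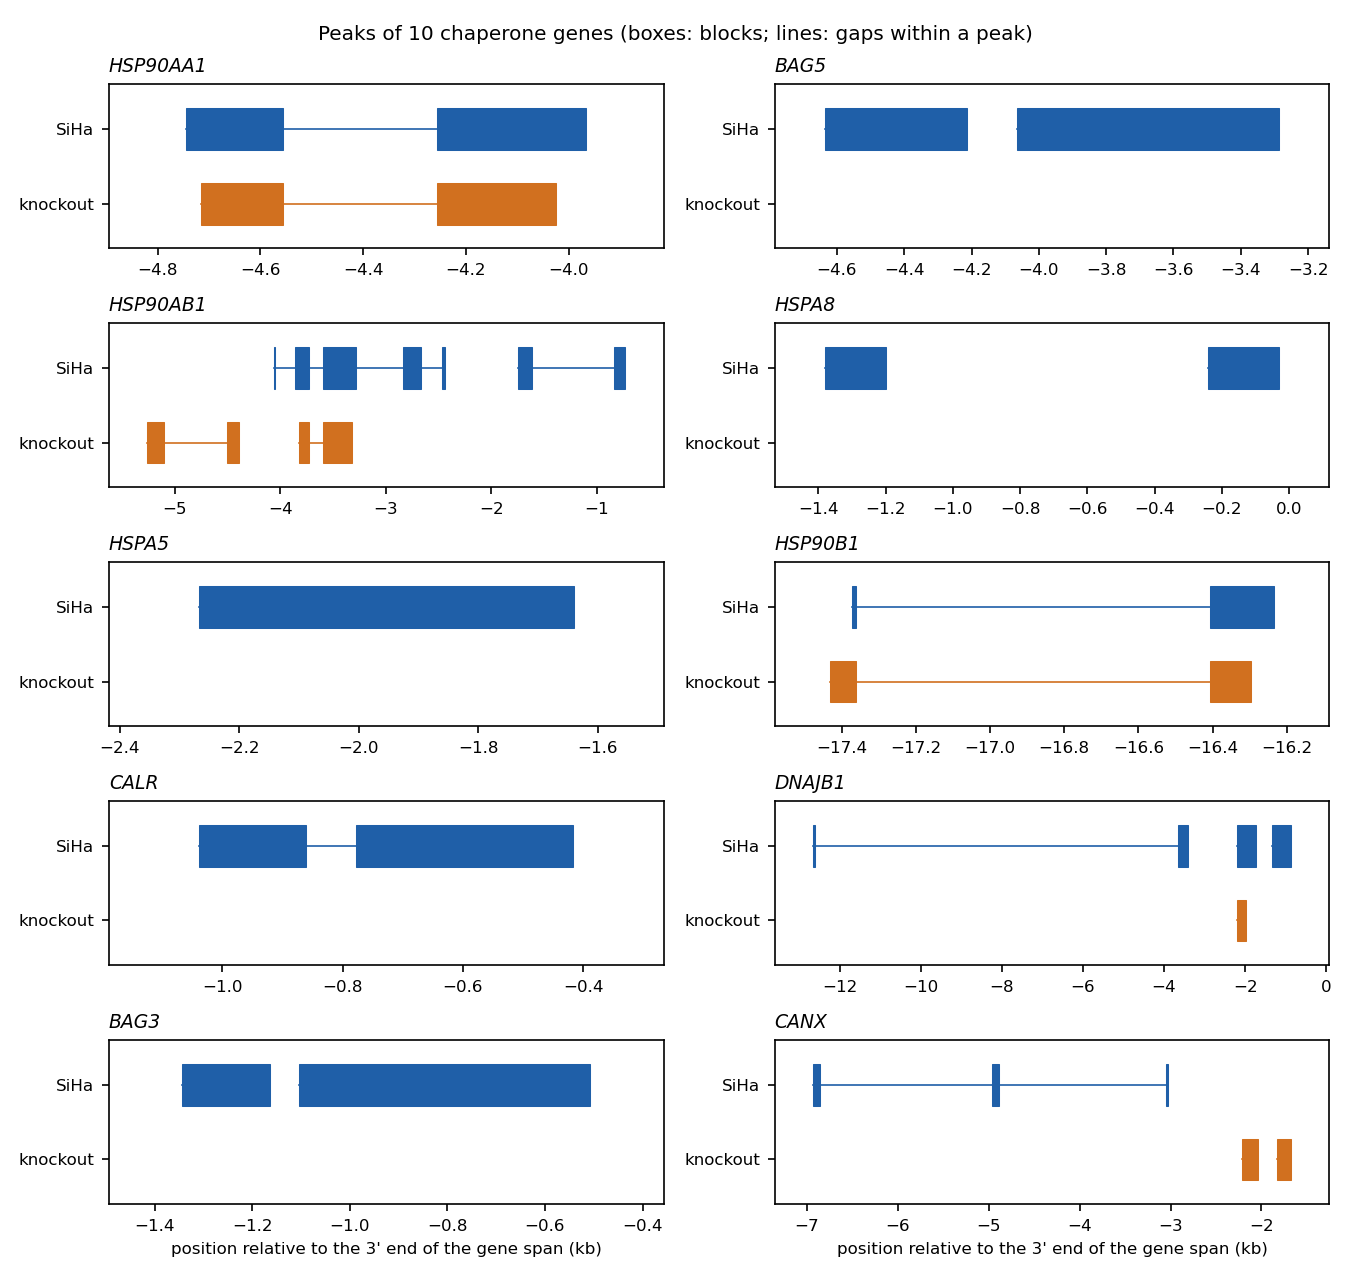
Peaks of each chaperone gene in the SiHa list (blue, upper row) and the knockout list (orange, lower row), plotted in the direction of transcription as kb from the 3′ end of the RefSeq gene span; boxes are blocks, lines are gaps within a peak, and each panel has its own scale. In HSP90AA1, HSP90AB1, HSP90B1 and DNAJB1 a knockout peak lies at the place of a SiHa peak, in CANX the peaks of the lists lie apart, and the other 5 genes have no knockout peak.

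Cytosolic HSP90 is encoded by HSP90AA1, the stress-inducible form, and HSP90AB1, the constitutive form. HSP90AA1 (ENSG00000080824, GRCh38 chr14:102080742-102139749, minus strand) had 1 SiHa peak at chr14:102084707-102085486. It had 481 bases in 2 blocks, of 189 and 292 bases, and its p was listed at 0. The knockout peak, at chr14:102084767-102085456, had 391 bases in 2 blocks with a fold of 5.34. All 391 bases lay inside the SiHa peak, and both peaks left out the same 299 bases between their blocks, from 102084999 to 102085297. The gene therefore had the same place and the same gap in either list, with a knockout peak shorter by 30 bases at 1 end and 60 at the other.

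By p this HSP90AA1 peak stood near the top of the knockout list. Its p was listed at 0 there beside a −log10 p of 16400, the 5th highest of 4557 peaks, so a p listed at 0 stood for a number too small to be written. The SiHa list gives no log of the p, so its peaks at 0 cannot be ordered among themselves. By fold the same peak ranked 3734th. The fold is the authors' own ratio, whose reference is not given in the sources used here.

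HSP90AB1 (ENSG00000096384, chr6:44246194-44253883, plus strand) had 2 peaks in each list. The first SiHa peak, at chr6:44249819-44251448, had 656 bases in 5 blocks of 16, 134, 309, 166 and 31 bases, and its p was listed at 0. The other, at chr6:44252137-44253152, had 239 bases in 2 blocks and a p of 6.3e-21. Of the knockout peaks, the one at chr6:44250064-44250558 had 359 bases, a fold of 2.36 and a −log10 p of 818, the 13th highest of the list. It lay wholly inside the 5-block SiHa peak, covered 54.7% of it and skipped the same 136 bases, from 44250155 to 44250290. The knockout peak nearer the 5′ end, at chr6:44248621-44249490, had 270 bases, a fold of 5.88 and a p of 2.5e-17. It ended 328 bases before the nearest SiHa peak, and the SiHa peak nearest the 3′ end had no knockout counterpart. The 2 HSP90 genes are close in sequence and have processed copies elsewhere in the genome, and how reads that fit several copies were placed is not given in the sources used here.

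HSP90B1 (ENSG00000166598, chr12:103930410-103947926, plus strand) encodes the ER HSP90, also called GRP94. Its SiHa peak, at chr12:103930555-103931691, had 181 bases, 10 in the first block and 171 in the second, and a p of 6.3e-49. The knockout peak, at chr12:103930496-103931631, had 180 bases, 69 and 111, with a fold of 2.22 and a p of 1e-115. The peaks shared 121 bases, 66.9% of the SiHa peak and 67.2% of the knockout peak, and both skipped the 956 bases from 103930565 to 103931520. The knockout peak reached 59 bases further toward the 5′ end and the SiHa peak 60 bases further toward the 3′ end. This was the only member whose peaks in both lists lay at the start of the gene, with centres at 6.50% and 4.37% of the span.

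DNAJB1 (ENSG00000132002, chr19:14514769-14560391, minus strand) encodes a J-domain protein that stimulates the HSP70 ATPase. It had 3 SiHa peaks, the most of any member, with 1255 bases in all. The middle one, at chr19:14516498-14516975, had 478 bases and a p of 1e-254. The one nearest the 3′ end, at chr19:14515636-14516113, also had 478 bases, with a p of 1e-56. The knockout list held 1 peak, at chr19:14516736-14516975, of 240 bases with a fold of 23.3 and a p of 1e-130. It lay inside the middle SiHa peak, shared its 5′ edge exactly and covered 50.2% of it. The fold of 23.3 was the highest among the knockout peaks of the 10 genes, and the other 6 lay between 1.78 and 5.88.

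The DNAJB1 SiHa peak nearest the 5′ end, chr19:14518181-14527425, had 299 bases and a p of 7.9e-15. Its blocks, of 59 and 240 bases, stood 8946 bases apart. It was the only member peak that touched a RefSeq promoter window, which runs from 250 bases before an annotated start site to 50 after it. Of all SiHa peaks in genes with such a window, 2.90% reached one, and of knockout peaks 2.83%. The 240-base block began 23 bases before the start site at 14518397 and ran past it, and the 59-base block lies further upstream, so the peak was drawn on a transcript that starts before that site. The 120 bases before that site are shown, from RefSeq (GRCh38.p14, minus strand, 5′ to 3′), because a member peak reaches into them. Capitals mark the 23 bases under the peak, which also covered the 50 bases after the site and 7 bases of another DNAJB1 window, not shown.
DNAJB1, 120 bases before the start site: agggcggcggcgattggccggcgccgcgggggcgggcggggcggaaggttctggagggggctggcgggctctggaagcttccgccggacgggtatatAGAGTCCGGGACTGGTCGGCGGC

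CANX (ENSG00000127022, chr5:179678656-179731641, plus strand) encodes calnexin, the membrane-bound lectin chaperone of the ER. Its SiHa peak, at chr5:179724710-179728617, had 181 bases in 3 blocks of 74, 80 and 27 bases, and its p was listed at 0. Of the 7 member peaks with a SiHa p listed at 0, this was the shortest, and the others had 481 to 779 bases. The knockout peaks lay nearer the 3′ end. The first, at chr5:179729426-179729606, had 181 bases, a fold of 1.78 and a p of 0.00091, and began 808 bases past the SiHa peak. The second, at chr5:179729816-179729966, had 151 bases, a fold of 3.70 and a p of 7.9e-13, and began 1198 bases past it. CANX thus had peaks in both lists and none at the same place.

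HSPA8 and HSPA5 are the constitutive HSP70 of the cytosol (HSC70) and the HSP70 of the ER (BiP). HSPA5 (ENSG00000044574, chr9:125234853-125241343, minus strand) had 1 SiHa peak, an unbroken block of 628 bases at chr9:125236493-125237120, with its p listed at 0. HSPA8 (ENSG00000109971, chr11:123057489-123062462, minus strand) had 2 shorter ones. The first, at chr11:123058689-123058868, had 180 bases and a p of 1e-40. The second, at chr11:123057519-123057728, had 210 bases and a p of 5e-77, and its centre lay 135 bases from the 3′ end of the gene, the closest of all member peaks. Neither gene had a knockout peak.

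BAG3, which also links HSP70 clients to selective autophagy, and BAG5, whose protein holds several BAG domains, had 2 SiHa peaks each and no knockout peak. In BAG3 (ENSG00000151929, chr10:119651380-119677819, plus strand) the peak at chr10:119676715-119677312 had 598 bases and a p listed at 0. The peak 59 bases before it, at chr10:119676476-119676655, had 180 bases and a p of 0.01, the weakest of the 16. In BAG5 (ENSG00000166170, chr14:103556551-103562657, minus strand) the peaks had 779 bases, at chr14:103559838-103560616 with a p listed at 0, and 420 bases, at chr14:103560766-103561185 with a p of 1.3e-70. Only 149 bases separated them, and together they covered 19.6% of the gene span, the highest share among the members. The 779-base peak was the longest member peak and ranked 211th by length of 12924.

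CALR (ENSG00000179218, chr19:12938609-12944489, plus strand) encodes calreticulin, the soluble partner of calnexin in the ER. Its SiHa peak, at chr19:12943452-12944072, had 538 bases in blocks of 178 and 360 bases, 83 bases apart, and a p listed at 0. No knockout peak was listed. The 2 lectin genes thus differed in the knockout list, where CANX had 2 peaks and CALR none, and the lists give no replicate values with which to test this.

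**Figure D2:**
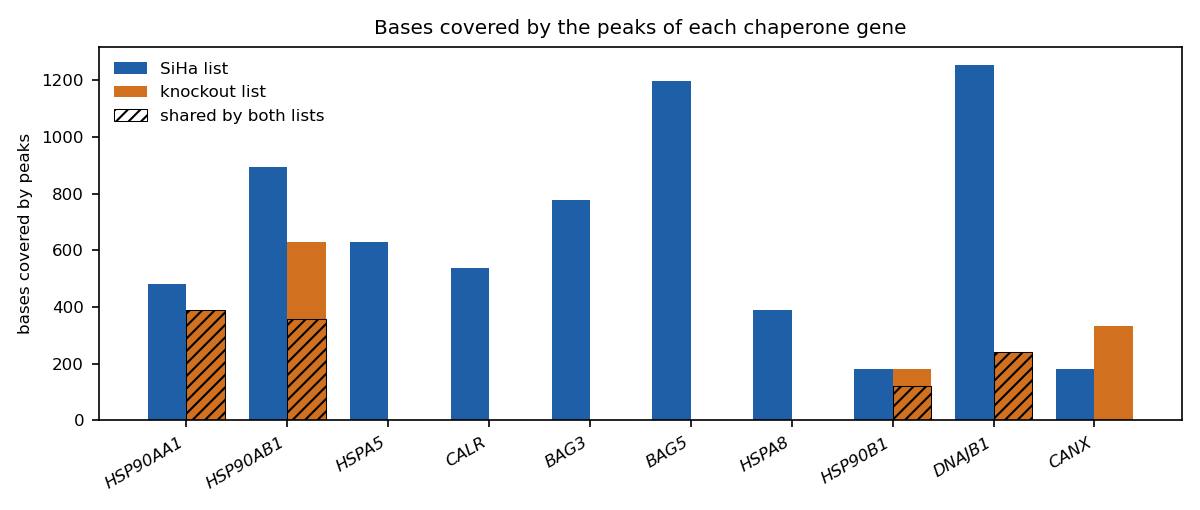
Bases covered by the peaks of each gene in the SiHa list (blue) and the knockout list (orange); hatching marks the bases that peaks of both lists share. Knockout bars are 0 for HSPA5, CALR, BAG3, BAG5 and HSPA8, and in CANX alone the knockout peaks cover more bases (332) than the SiHa peak (181).

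Together the member peaks covered 6526 bases in the SiHa list and 1772 in the knockout list, a ratio of 3.68, beside 4.04 for the summed bases of all peaks. The median member peak had 449 bases in the SiHa list and 240 in the knockout list, beside 181 and 180 over all peaks. The 5 genes with SiHa peaks alone held 3533 of the SiHa bases and the 5 with peaks in both lists 2993. By bases the order from the highest was DNAJB1 (1255), BAG5 (1199), HSP90AB1 (895), BAG3 (778), HSPA5 (628), CALR (538), HSP90AA1 (481), HSPA8 (390), and HSP90B1 and CANX (181 each). Without replicate values, no neighbours in this order can be told apart by their spread.

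Member SiHa peaks had small p-values, and these were known when the genes were chosen. Their p was listed at 0 in 7 of 16 cases, beside 2.39% of all SiHa peaks, and in 2 of 7 cases in the knockout list, beside 0.505%. The genes with such a SiHa peak were HSP90AA1, HSP90AB1, HSPA5, CALR, BAG3, BAG5 and CANX, and 3 of these 7 had a knockout peak. Of all 281 genes with a SiHa p at 0, 132 (47.0%) had one. Peaks of 2 or more blocks made up 7 of the 16, beside 25.2%, and 5 of the 10 genes had 2 or more SiHa peaks, beside 40.9% of genes.

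**Figure D3:**
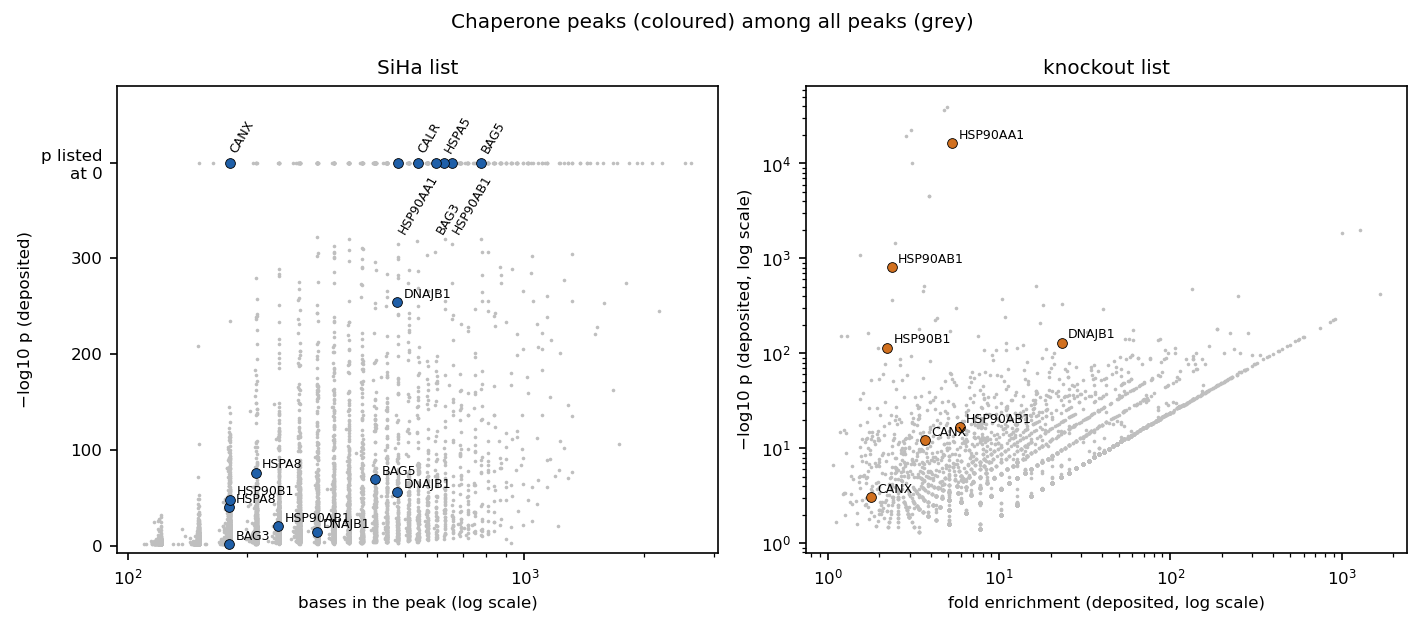
Left, bases in a peak against the deposited −log10 p for all SiHa peaks (grey) and the chaperone peaks (blue), with p listed at 0 drawn on the top line. Right, deposited fold against −log10 p, both on log scales, for all knockout peaks (grey) and the chaperone peaks (orange); HSP90AA1, HSP90AB1 and HSP90B1 have large −log10 p (16400, 818 and 115) at folds of 5.34, 2.36 and 2.22.

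Of the 7 knockout peaks of the members, 6 had a fold below the median of 12.8 over all knockout peaks, and the exception was DNAJB1 at 23.3. Likewise 6 had a −log10 p above the overall median of 5.45, and the exception was the first CANX peak at 3.04. The medians of the 7 were a fold of 3.70 and a −log10 p of 115. Many knockout peaks lie on a repeated series, in which at least 5 peaks have exactly the same fold and the same p. That series held 3106 knockout peaks (68.2%) and 0 of the 7 member peaks. Among the peaks off the series the median fold was 8.55, still above that of the members. The authors' false discovery rate was at most 0.05 in all 7 member peaks, the highest being 0.0123 in CANX, whereas 25.0% of all knockout peaks were above it. Since the reference of the fold is unstated, folds of different genes were not compared as amounts of ac4C.

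At the level of single peaks, 4 of the 16 SiHa peaks were overlapped by a knockout peak on the same strand by at least 1 base, beside 6.76% of all SiHa peaks. In the other direction, 4 of the 7 knockout peaks were overlapped, beside 19.2% of all knockout peaks. The overlapping pairs lay in HSP90AA1, HSP90AB1, HSP90B1 and DNAJB1, so 6 of 10 genes had no SiHa peak overlapped, beside 89.3% of genes. In HSP90AA1, HSP90AB1 and DNAJB1 the knockout peak lay entirely within the SiHa peak, and in HSP90B1 each peak reached beyond the other. All 4 pairs also shared at least 50% of the bases of both peaks. In genes with peaks in both lists, 4 of 8 member SiHa peaks were overlapped, beside 871 of 4248 over all such genes. Peaks that lie apart, as in CANX, are thus the more common case.

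Measured on the RefSeq span, most member peaks lay toward the 3′ end. The spans of HSP90AA1 and DNAJB1 are long, 59008 and 45623 bases, and both genes have start sites far inside them, at 102087044 and 14518397. Measured from those sites, the peaks downstream of them would lie nearer the 5′ end. The counts below were not redone for such sites. The centre was in the last 50% of the RefSeq span, introns included, for 13 of 16 SiHa peaks, beside 76.4% of the 9082 SiHa peaks of genes with a named strand. The exceptions were both BAG5 peaks, at 27.5% and 39.8% of the span, and that of HSP90B1. In the knockout list 5 of 7 centres lay there, beside 71.4%, and the exceptions were HSP90B1 and the peak of HSP90AB1 at 36.6%. The median distance from centre to 3′ end was 1961 bases for member SiHa peaks and 4374 for all. Exons and coding regions were not used here, so the peaks were not assigned to coding or untranslated sequence.

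The promoters of these genes were also read. Heat shock genes are known for heat shock elements, bound by HSF1, and ER chaperone genes for the ER stress response element, bound by ATF6 with NF-Y. The members were chosen by name as chaperones, so matches in them are not independent of the choice and are only described. All 10 members matched RefSeq windows by symbol, some with several start sites. On both strands the windows were searched for GAANNTTCNNGAA or TTCNNGAANNTTC, a heat shock element of 3 units, and for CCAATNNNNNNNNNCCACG, the ER element. The first was found in HSP90AA1, HSP90AB1 and HSPA8, and in 0.608% of all 27305 genes with a window (0.490% of 35116 windows). The second was found in HSPA5, CALR, HSP90B1 and CANX, and in 0.0916% of genes (0.0769% of windows). The shorter forms GAANNTTC and TTCNNGAA, which the 3-unit form contains, were found in windows of 5 members, DNAJB1 and CANX besides the first 3, and in 16.2% of genes (13.5% of windows).

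For each of these 7 genes, 1 match before an annotated start site is shown, with 12 bases on either side, so that the letters can be compared between genes. BAG3, BAG5 and DNAJB1 held neither the 3-unit heat shock element nor the ER element. They are 5′ to 3′ on the gene's strand (RefSeq, GRCh38.p14), with the motif in capitals. In CALR and HSP90B1 the ER element reads on the opposite strand. In CANX, which has several start sites, the match lies before the one at 179698929 and runs across another at 179698787.
HSP90AA1, chr14:102087108-102087144, minus strand: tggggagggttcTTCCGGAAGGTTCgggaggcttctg
HSP90AB1, chr6:44247819-44247855, plus strand: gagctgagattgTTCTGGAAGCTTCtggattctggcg
HSPA8, chr11:123062167-123062203, minus strand: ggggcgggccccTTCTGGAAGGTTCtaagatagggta
HSPA5, chr9:125241379-125241421, minus strand: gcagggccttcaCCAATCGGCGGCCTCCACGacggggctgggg
CALR, chr19:12938372-12938414, plus strand: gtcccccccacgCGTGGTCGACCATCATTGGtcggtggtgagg
HSP90B1, chr12:103930309-103930351, plus strand: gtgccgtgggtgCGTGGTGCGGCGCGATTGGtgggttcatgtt
CANX, chr5:179698766-179698808, plus strand: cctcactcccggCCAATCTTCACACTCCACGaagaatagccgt

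Each motif occurred in genes with peaks in both lists and in genes with SiHa peaks alone. A link between motif and peak list was not tested, since the members were chosen with their peaks known. Of the 3 members with the 3-unit heat shock element, HSP90AA1 and HSP90AB1 had peaks in both lists and HSPA8 in SiHa alone. Of the 4 with the ER element, HSP90B1 and CANX had peaks in both lists and HSPA5 and CALR in SiHa alone. A match is a string of letters and not a measured site.

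The 10 genes were set in a wider list of 179 genes of protein folding, sorted into 9 classes. Of these, 90 had a SiHa peak, 71 of them with no knockout peak (78.9%, beside 73.0% of all genes with a SiHa peak) and 19 with peaks in both lists. A further 13 had a knockout peak alone, 40.6% of the 32 genes with a knockout peak, beside 47.1% over all genes. No peak was named for 67 genes, 7 names were contested between identifiers or genes, and 2 symbols were not in the gene table. The share of all annotated genes with a SiHa peak is not given here. The 90 of 179, and the like counts by class below, are therefore only described. Without the 10 members, 66 of 80 genes had a SiHa peak alone (82.5%) and 14 had peaks in both lists. The 13 genes with a knockout peak alone were then 48.1% of 27, near the 47.1% over all genes.

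**Figure D4:**
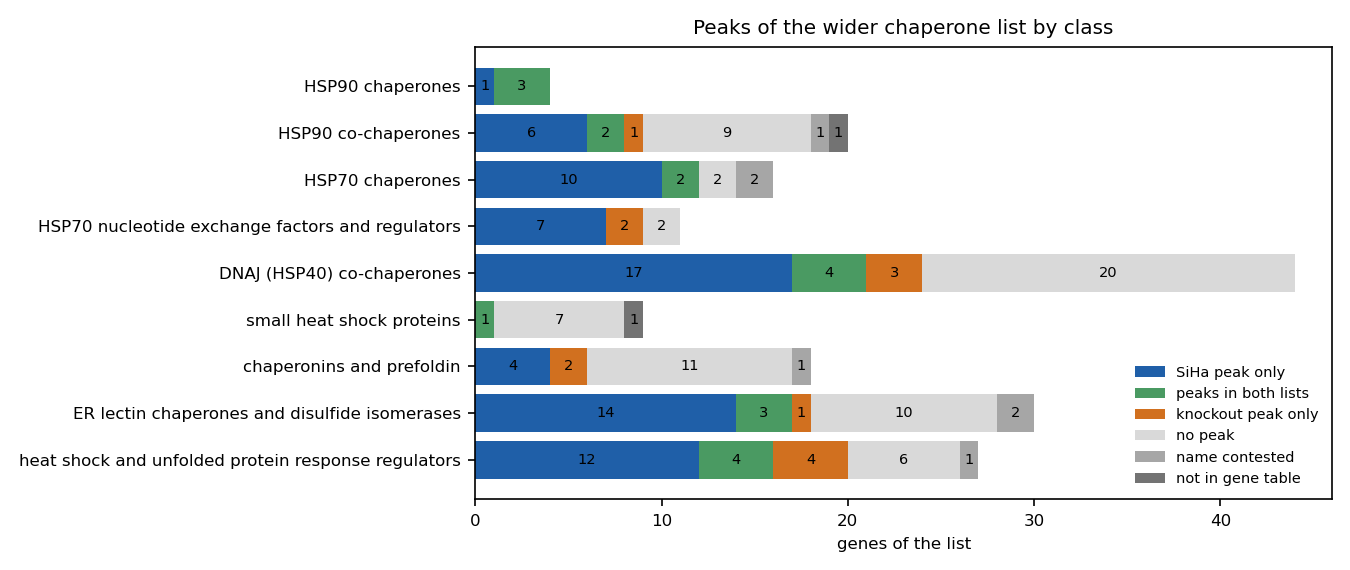
Number of genes in each class of the wider chaperone list with a SiHa peak only (blue), peaks in both lists (green), a knockout peak only (orange) or no named peak (greys). Of the genes with a SiHa peak, 78.9% have SiHa peaks alone, beside 73.0% of all genes. The 3 HSP90 chaperone genes with peaks in both lists are members, chosen with their peaks known.

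In the classes below, the genes with SiHa peaks alone are counted among those with a SiHa peak. Over all genes that share was 73.0%, and no class was tested against it. For genes with peaks in both lists, a lack of overlap is common. Over all such genes, only 871 of 4248 SiHa peaks were overlapped by a knockout peak. Among the HSP90 chaperones, TRAP1, the mitochondrial form, had 3 SiHa peaks alone, unlike the 3 members. Of 20 HSP90 co-chaperones, 8 had a SiHa peak, and 6 of these 8 had SiHa peaks alone. Those 6 were led by the immunophilin FKBP5 with 4 peaks and a smallest p of 7.9e-66, and by SGTA, CHORDC1 and the ATPase activator AHSA1. CDC37, which brings kinases to HSP90, and CACYBP had peaks in both lists, none of them overlapping, and the knockout peak of CACYBP had a false discovery rate of 0.525. For STIP1, which couples HSP70 to HSP90, only the knockout list held a peak, with a fold of 1.82.

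Of 16 HSP70 genes, 12 had a SiHa peak, and 10 of these 12 had SiHa peaks alone. Beside HSPA5 and HSPA8 these included HSPA2 (smallest p 1e-186) and the stress-inducible HSPA1B (1e-119), whose sequence is nearly identical to that of HSPA1A, so peaks of this pair are uncertain. HSPA13 had a 541-base SiHa peak that wholly contained 1 of its 2 knockout peaks, of 151 bases with a fold of 10.9. HSPA4 had peaks of both lists at different places. Of 11 exchange factors and regulators, 7 had a SiHa peak. All 7 had SiHa peaks alone and 0 had peaks in both lists. Beside BAG3 and BAG5 the strongest were BAG4 (2e-83) and ST13 (7.9e-44). The mitochondrial exchange factor GRPEL2 and BAG6 had a knockout peak alone, with folds of 17.9 and 15.4, the latter with a false discovery rate of 0.155.

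Among 44 J-domain genes, 21 had a SiHa peak, of which 17 had SiHa peaks alone and 4 had peaks in both lists. A further 3 had knockout peaks alone. DNAJC22, DNAJC14 and DNAJC5 were among the 17 genes with SiHa peaks alone that had the smallest p-values, 1e-111, 2.5e-68 and 2e-33. DNAJB9, DNAJC17 and GAK had peaks in both lists like DNAJB1. None of theirs overlapped, the common case given above, and the knockout peak of DNAJB9 had a false discovery rate of 0.155. DNAJC8, DNAJC7 and DNAJA2 had knockout peaks alone, with folds of 6.23, 3.59 and 2.65. Of the small heat shock genes only HSPB1 had named peaks, 2 in SiHa and 1 at another place in the knockout with a fold of 19.2. In the class of chaperonins and prefoldin, which also held the mitochondrial disaggregase CLPB, SiHa peaks alone were found in CLPB, PFDN1, CCT3 and CCT4. CCT5 and PFDN5 had knockout peaks alone, with folds of 164 and 7.69, the latter with a false discovery rate of 0.526.

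Of 30 ER lectin and disulfide isomerase genes, 17 had a SiHa peak, and 14 of these 17 had SiHa peaks alone. FKBP10, PDIA4 and PPIB, which encode a prolyl isomerase of collagen folding, a disulfide isomerase and cyclophilin B, had a SiHa p listed at 0 like CALR. UGGT1, which marks unfolded glycoproteins for calnexin and calreticulin, and TMX4 had peaks in both lists like CANX. In TMX4 a 300-base SiHa peak and a 151-base knockout peak with a fold of 5.86 shared 91 bases. The other of its 2 knockout peaks, with a fold of 87.2, did not overlap the SiHa peak. TMX2 had a peak of 33.3-fold in the knockout list and none in SiHa.

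Among 27 regulators of the heat shock and unfolded protein responses, 16 had a SiHa peak, and 12 of these 16 had SiHa peaks alone. The 12 included MBTPS1, the protease that activates ATF6 (smallest p 1e-199), PPP1R15B, EDEM3 and DERL1. SEL1L, OS9, ERLEC1 and EDEM1 had peaks in both lists, none of them overlapping, and the knockout peaks of SEL1L and ERLEC1 had false discovery rates of 0.466 and 0.526. HSF1, ATF6B, HERPUD1 and PPP1R15A had knockout peaks alone, and that of HSF1 had a fold of 12.8 and a false discovery rate of 0.525. Over the wider list, 6 of the 90 genes with a SiHa peak had one that a knockout peak overlapped: HSP90AA1, HSP90AB1, HSP90B1, DNAJB1, HSPA13 and TMX4. The other 84 (93.3%) had none, beside 89.3% of all genes. Without the 10 members, chosen with their peaks known, 78 of 80 (97.5%) had none.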

How the data were processed

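Peaks were measured by ac4C immunoprecipitation and sequencing; per the labels' protocols, the library kit was a stranded one for mRNA. Per the submitters' processing notes, GRCh38 (hg38) and FastQC 0.11.7 were used; not given in the sources used here are the aligner, the peak caller, the annotation and whether replicates were pooled. The authors deposited a p-value per peak and, in the knockout list, a fold ratio and scores that are log10 of the p and of the false discovery rate. These values only describe and rank peaks within a list.

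One repeated line and peaks off the chromosomes (3 SiHa, 2 knockout) were left out. The files hold Ensembl identifiers without symbols. An identifier took a RefSeq (GRCh38.p14) symbol where at least 90% of its peak bases lay in 1 gene span, on the gene's strand where known, and no other identifier did; 7423 of 9046 (82.1%) were named, and all 10 members. Protein-coding spans went before long noncoding ones. Overlap needed 1 shared block base on 1 strand. Python 3.11.15 and pandas 2.3.3 were used, and overlap and naming were tested on simulated data. Members, lists and alternatives were chosen with earlier results of these data known. All members were named in the text, and per class of the wider list up to 4 genes with peaks in both lists and 4 with SiHa peaks alone (smallest p, ties alphabetical), and 4 with knockout peaks alone (largest fold). With 1 list per population, no test between populations was made. A gene that this rule would name is not reported here.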

Additional observations from a re-analysis of the deposited data

How the results depend on the processing

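Of the alternatives to the 5 counts, 33 of 36 gave a count within 1.5 times the reported one. For the 10 chaperone genes this held for every alternative run: 5 genes had a SiHa peak alone under each, or 6 when a gene without an overlapping knockout peak counted with them (CANX), and 4 SiHa and 4 knockout peaks overlapped under each. Much of this was fixed beforehand. The settings on false discovery rate and repeated series could remove none of the 7 member knockout peaks. Every member had a SiHa peak with a −log10 p above 8. Fewer SiHa peaks left 15 of the 16, and the threshold on both lists left 6 of the 7 knockout peaks. For the wider list, the 71 genes with a SiHa peak alone became 45 of 60 when SiHa peaks needed a −log10 p above 8, and 42 of 55 when the SiHa list was reduced to the length of the knockout list; fewer SiHa peaks remain in either by construction. The 13 genes with a knockout peak alone became 7 of 18 without the knockout peaks of the repeated series, which takes peaks from that list by construction. The shares over all genes under these same settings are not given here, so these counts are not set against them. No paired analysis was possible because each population has 1 peak list with no value for a replicate, and for the same reason no replicate could be left out. Depth is unknown, so a gene without a knockout peak cannot be set against the reads it had there.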
